A study of Mus musculus with 10 samples.

Results

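The D-type cyclins Ccnd1, Ccnd2 and Ccnd3 were examined across the caudal and rostral neocortex of mouse embryos at E11.5. All probes whose single gene symbol is one of these names were taken, which gave 4 probes for 3 genes, out of 21766 probes and 15063 genes: 1 for Ccnd1 (CG_Mm_3004774_1), 2 for Ccnd2 (CG_Mm_3004775_1, called probe 1, and CG_Mm_EXT_3108105_1, called probe 2) and 1 for Ccnd3 (CG_Mm_3004777_1). The genes were singled out because Ccnd1 and Ccnd2 lay on opposite sides in these same arrays, so their regional ratios are given as a description, without a test. By that choice the means of Ccnd1 and Ccnd2 lay on opposite sides, although Ccnd2 probe 2 was at -0.05 in MF1 pool 1. The label did not cover Ccnd3, which lay close to 0 with both signs.

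Embryos of MF1, an outbred stock, and of C57, an inbred strain, were used to keep regional differences apart from those of strain, and the labels name no treatment. The caudal and rostral end pieces of the neocortex of 3 embryos from a litter made a pool, and the 2 RNAs were amplified as cDNA, labelled with different dyes and hybridised together. Each pool was run on 2 arrays with the dyes exchanged, so the 10 arrays hold 3 pools of MF1 and 2 pools of C57. All values are given on the log2 scale as the caudal amount divided by the rostral one. A value above 0 therefore stands for more RNA caudally, and a ratio says nothing about how strongly a gene is expressed.

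D-type cyclins are the regulatory subunits that switch on Cdk4 and Cdk6 in G1, when a cell decides whether to divide again. The active kinase phosphorylates the retinoblastoma protein, which releases E2F factors and starts S phase. In the neuroepithelium of the early cortex, D-type cyclins link growth factors to progenitor division, and in the mouse Ccnd2 mRNA is known for its place in the basal endfeet of radial progenitors. WNT signalling through beta-catenin and FGF signalling through ERK are known inducers of Ccnd1 in several cell types.

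The direction of the ratios is likely but not stated with the deposited values, here taken to be Cy5 divided by Cy3. The basis is the dye named for each region and the side of known gradient genes such as Spry1, a feedback inhibitor of FGF signalling known for rostral expression, whose ratio was -1.28 ± 0.14 (limma's SE, n = 5 pools). Spry1 was negative in both dye orders, at -1.07 with caudal and -1.69 with rostral RNA in Cy5. Of other patterning genes of the cortex, Emx2 and Pax6 gave no clear side. Emx2 had 0.10 ± 0.15, and Pax6 had 0.10 ± 0.17 at one probe and 0.02 ± 0.14 at the other (limma's SE). Turned the other way, every sign below would change together. The arrays were unlike each other. They gave a ratio for 13723 to 18288 probes in MF1 and for 20191 to 20870 in C57, and the pool medians ran from -0.20 to 0.15 in MF1 and from -0.17 to 0.37 in C57. Over all probes, the 2 arrays of a pool, both turned to caudal over rostral, had Pearson correlations of only -0.25 to -0.17 in MF1 and -0.14 to 0.03 in C57, so values of each dye order are shown for the cyclins. Between pools the correlations ran from -0.22 to 0.21. A correlation below 0 between the 2 arrays of a pool means that probes higher in one dye order tended to be lower in the other. Values that go with the dye and not with the region behave in this way. The part of the dye in the ratios was not tested. Precision is limited by this disagreement between dye orders as well as by how few arrays there are.

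Ccnd1 had pool ratios of -1.55, -0.29 and -0.55 in MF1 pools 1 to 3, and of -0.43 and -0.70 in C57 pools 1 and 2. All pools of both strains lay on the rostral side, and the strains overlapped. The mean was -0.70 ± 0.50 (SD, n = 5 pools), a rostral level 1.63 times the caudal one. After each array was centred on its median it was -0.74 ± 0.47, again with all pools rostral. Among 8924 probes measured in all 5 pools, 0.728% had a rostral ratio in each of them (2.57% after centring), and 0.74% were rostral on at least 9 of 10 arrays, as Ccnd1 was. These shares are given for scale only, since the pattern chose the gene. In tissue pieces of this kind, fewer cells of a type and less RNA per cell cannot be told apart.

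Where caudal RNA carried Cy5, Ccnd1 had -1.13, -1.14 and -0.60 in MF1 pools 1 to 3, and -0.17 and -0.51 in the C57 pools. With rostral RNA in Cy5 it had -1.98, 0.56 and -0.49 in MF1, and -0.68 and -0.89 in C57. The 2 arrays of MF1 pool 2 therefore disagreed in sign, and the one with caudal RNA in Cy5 minus the other was -1.69, while in the other 4 pools both arrays were negative. Averaged over pools, the dye orders gave nearly the same value, -0.71 with caudal RNA in Cy5 and -0.70 with rostral RNA in Cy5.

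Ccnd2, the D-type cyclin most tied to cortical progenitors in the mouse, lay on the other side. Probe 1 had pool ratios of 0.32, 1.09 and 0.56 in MF1, and of 0.39 and 1.01 in C57. Its mean was 0.67 ± 0.36 (SD, n = 5 pools), a caudal level 1.59 times the rostral one. After each array was centred on its median it was 0.63 ± 0.22, again with all pools caudal. The pools of each strain covered almost the same range. Probe 1 was positive on all 10 arrays, a property of 0.403% of the 8924 probes measured on all of them, and 4.16% were caudal in all 5 pools (5.84% after centring). As for Ccnd1, the shares given for both Ccnd2 probes are for scale only, since the pattern chose the gene. Probe 1 had 0.51, 1.55 and 0.51 in MF1 and 0.46 and 1.30 in C57 with caudal RNA in Cy5. With the dyes exchanged it had 0.13, 0.64 and 0.61 in MF1 and 0.32 and 0.72 in C57. The mean was 0.86 in the dye order with caudal RNA in Cy5 and 0.48 in the other.

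Ccnd2 probe 2 had pool ratios of -0.05, 1.25 and 1.71 in MF1, and of 0.49 and 1.01 in C57, with a mean of 0.88 ± 0.68 (SD, n = 5 pools). It was caudal in 4 of 5 pools and on 9 of 10 arrays, as many as 2.75% of probes reached or passed. MF1 pool 1 was the exception, and its arrays stood at 0.08 with caudal and -0.17 with rostral RNA in Cy5. After each array was centred on its median, this pool had 0.14, and probe 2 was positive on all 10 arrays, which 1.03% of probes were. The centred mean of probe 2 was 0.84 ± 0.55. The 2 arrays of a pool lay within 0.51 of each other in all 5 pools. By dye order, probe 2 averaged 1.02 with caudal RNA in Cy5 and 0.75 with rostral RNA in Cy5.

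**Figure D1:**
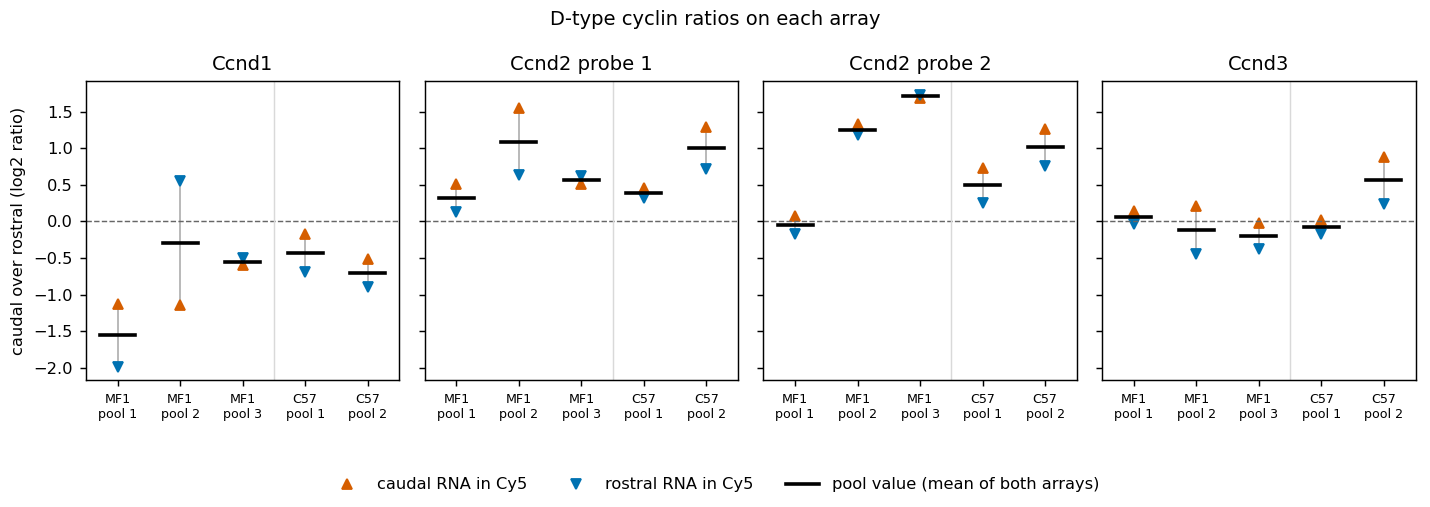
Caudal over rostral log2 ratio of each D-type cyclin probe (y axis) in 3 MF1 and 2 C57 pools (x axis). Triangles are single arrays by dye order, and black bars are pool values. Ccnd1 bars lie below 0 in all 5 pools, Ccnd2 probe 1 above 0 in all 5, and Ccnd3 bars on both sides. The arrays of MF1 pool 2 disagree in sign for Ccnd1.

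The 2 Ccnd2 probes differed most in MF1. Probe 2 minus probe 1 was -0.36, 0.16 and 1.15 in MF1 pools 1 to 3, against 0.10 and 0.005 in the C57 pools. Over 5 pools their root mean square difference was 0.54. Of 7527 other probes with a single gene symbol and all 5 pools, 18.7% were closer to probe 1 and 1.61% closer to probe 2 than the probes were to each other. Which transcript forms the probes detect is not known here.

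Ccnd3, the remaining D-type cyclin, had pool ratios of 0.06, -0.12 and -0.20 in MF1, and of -0.08 and 0.56 in C57. Its mean was 0.05 ± 0.30 (SD, n = 5 pools), with 2 pools caudal and 3 rostral, and 3 caudal and 2 rostral after centring. Ccnd3 had a centred mean of 0.0035 ± 0.25. In 3 of the 5 pools its sign went with the dye order. With caudal RNA in Cy5 the values were 0.14, 0.22 and -0.02 in MF1 and 0.02 and 0.88 in C57, and with rostral RNA in Cy5 they were -0.03, -0.45 and -0.38 in MF1 and -0.17 and 0.24 in C57. The array with caudal RNA in Cy5 was the higher one in all 5 pools, by 0.17 to 0.66, and the 2 dye orders averaged 0.25 and -0.16.

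Differences between members within a pool do not depend on how the arrays are centred. Ccnd2 probe 1 minus Ccnd1 was 1.87, 1.38 and 1.11 in MF1 pools 1 to 3, and 0.82 and 1.70 in the C57 pools, with a mean of 1.38 ± 0.43 (SD, n = 5 pools). On single arrays it ran from 0.08 to 2.68. Ccnd2 probe 2 minus Ccnd1 was 1.51, 1.54 and 2.25 in MF1, and 0.92 and 1.71 in C57, with a mean of 1.59 ± 0.48. Both differences were positive on all 10 arrays. Expressed as a ratio of ratios, the balance of Ccnd2 to Ccnd1 was 2.59 times higher caudally by probe 1 and 3.0 times by probe 2. Ccnd3 minus Ccnd1 was smaller, at 0.75 ± 0.64, and lay between 0.17 and 1.61 in the 5 pools. Ccnd2 probe 1 minus Ccnd3 was 0.63 ± 0.37 and positive on all 10 arrays, whereas probe 2 minus Ccnd3 was 0.84 ± 0.79 and fell to -0.10 in MF1 pool 1. The order of the means was therefore Ccnd1, Ccnd3 and Ccnd2, and the 2 Ccnd2 probes did not differ beyond the spread of their difference, 0.21 ± 0.56. These differences come from the pattern that chose the genes and are a description.

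The place of each cyclin among all probes of its pool gives that order on a scale free of centring, except in MF1 pool 1, where Ccnd3 lay above Ccnd2 probe 2. Ccnd1 exceeded 3.85%, 23.6% and 8.32% of probes in the MF1 pools, and 26.3% and 1.62% in the C57 pools. Ccnd2 probe 1 exceeded 91.2%, 90.7% and 76.6% in MF1, and 92.7% and 95.4% in C57. Ccnd2 probe 2 exceeded 69.2%, 92.8% and 96.6% in MF1, and 94.6% and 95.4% in C57. Ccnd2 thus lay in the upper part of every pool without being at its extreme. Ccnd3 ranged widely on both sides of the middle, at 79.7%, 33.0% and 20.6% in MF1 and 61.2% and 81.7% in C57.

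**Figure D2:**
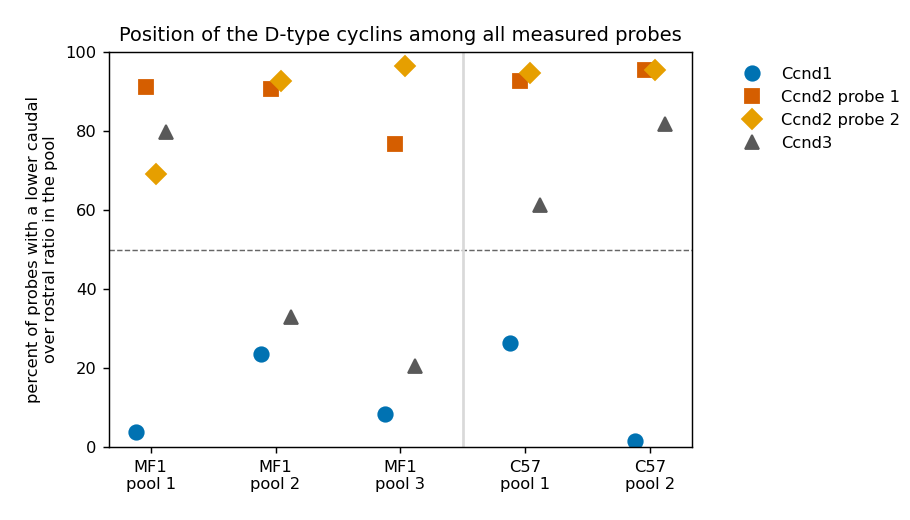
Percent of all measured probes in a pool with a lower caudal over rostral ratio than the cyclin (y axis, dashed line at 50), for 3 MF1 and 2 C57 pools. Ccnd1 stays between 1.62% and 26.3%, Ccnd2 probe 1 between 76.6% and 95.4% and Ccnd2 probe 2 between 69.2% and 96.6%.

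Whether the regional ratios depended on strain was asked with the contrast MF1 minus C57, which had no part in choosing the genes. No D-type cyclin probe passed, and no probe of the 11855 tested did in limma, with Benjamini-Hochberg adjustment over all of them (0% at an adjusted p under 0.05, smallest adjusted p 0.999, and 223 probes, or 1.88%, at an unadjusted p under 0.05). Ccnd1 averaged -0.80 ± 0.67 in MF1 (SD, n = 3 pools) and -0.56 ± 0.19 in C57 (SD, n = 2 pools). The difference was -0.23, with a 95% interval of -1.36 to 0.89 (limma adjusted p = 0.999). For Ccnd2 probe 1 the means were 0.66 ± 0.40 in MF1 and 0.70 ± 0.44 in C57, and the difference of -0.042 had an interval of -0.98 to 0.89. Probe 2 averaged 0.97 ± 0.91 in MF1 and 0.75 ± 0.37 in C57, with a difference of 0.22 and an interval of -1.21 to 1.65. Ccnd3 had -0.09 ± 0.13 in MF1 and 0.24 ± 0.45 in C57, and its difference of -0.33 had an interval of -1.13 to 0.47. The limma adjusted p was 0.999 for each of these 3 probes too. The pools of both strains overlapped for all 4 probes, while 16.1% of the probes measured in all 5 pools had strains that did not overlap. The intervals are wide, so strain differences of about 1 on the log2 scale cannot be told from none. For Ccnd2 probe 2 this holds up to 1.65. Not passing sets no tighter limit, since the fit recovered 0 of 200 simulated strain differences of 2.

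**Figure D3:**
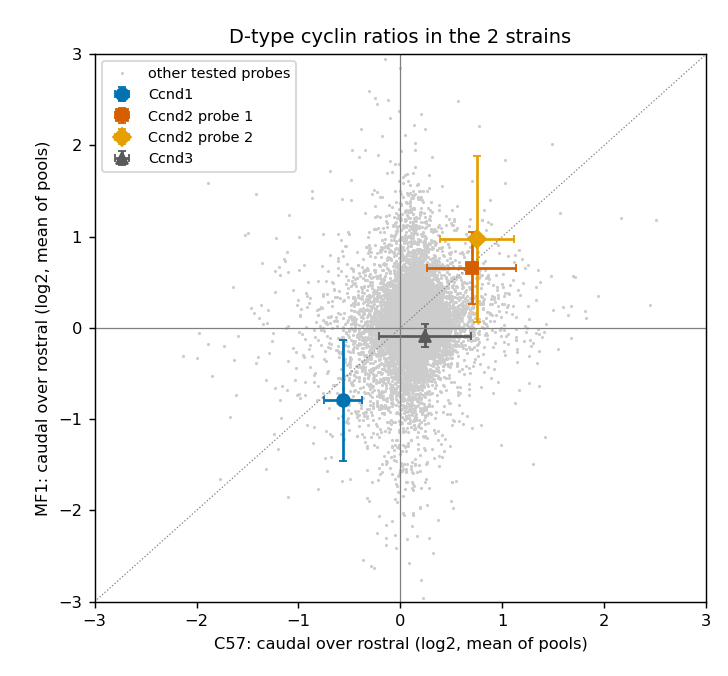
Mean caudal over rostral log2 ratio in MF1 (y axis, n = 3 pools) against C57 (x axis, n = 2 pools), with bars of 1 SD, over 11855 tested probes in grey. Ccnd1 lies low in both strains at -0.80 and -0.56, and both Ccnd2 probes lie high, at 0.66 and 0.70 for probe 1.

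The partners of the D-type cyclins in G1 were then followed with lists written down with earlier results of these data known, tested for the mean of both strains in limma. None of the 11855 probes passed an adjusted p of 0.05 (0%, smallest adjusted p 0.567), and 367, or 3.1%, had an unadjusted p under 0.05, 1.98% on the caudal and 1.11% on the rostral side. The median ratio of all tested probes was 0.09, and 69.4% of them were positive. For the partners, means over both strains are given with limma's SE.

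Cdk4, the main kinase partner of D-type cyclins, had ratios of -0.02, 0.43 and 0.04 in MF1 and of 0.33 and 0.36 in C57, a mean of 0.25 ± 0.15. Cdk2, which acts with cyclin E later in G1, had -0.34, -1.29 and 0.09 in MF1 and 0.29 and 0.38 in C57, a mean of -0.09 ± 0.23. Its average was 0.49 where caudal RNA carried Cy5 and -0.84 where rostral RNA did. Cdk6, the other kinase partner, was measured in both dye orders in only 1 MF1 pool and was not tested. It had 2.88 in MF1 pool 3 and 0.13 and 0.39 in the C57 pools. The 6 tested kinases of 8 listed had a median of 0.12, with 4 positive and 2 negative, and 0 passed in either direction.

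Cdkn1c, which encodes the CDK inhibitor p57 known for taking progenitors out of the cell cycle, had the largest ratio in size of the 4 tested CDK inhibitors of 8 listed. It had -0.51, -1.71 and -0.80 in MF1, and -0.52 and -0.21 in C57. All 5 pools were rostral, as for Ccnd1. The mean was -0.68 ± 0.22, with an unadjusted p of 0.0214 and a limma adjusted p of 0.983, so it did not pass. By dye order, Cdkn1c averaged -0.33 with caudal and -1.16 with rostral RNA in Cy5. The other 3 tested inhibitors, Cdkn1a, Cdkn2d and Cdkn3, had positive means, and the median of the 4 was 0.17. Cdkn1b, a CIP/KIP inhibitor that D-type cyclin complexes bind, had no complete MF1 pool and was not tested.

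Downstream of the cyclins, Rb1, the retinoblastoma protein they inactivate, had -0.05, -0.51 and -0.01 in MF1 and 0.45 and 0.43 in C57, a mean of 0.12 ± 0.15. Its relative Rbl1 had -0.16, -0.03 and 0.02 in MF1 and -0.05 and 0.28 in C57, a mean of 0.03 ± 0.14. The 10 tested pocket protein and E2F genes lay between -0.07 and 0.19, with a median of 0.04 (-0.01 after centring). Of 13 probes for S-phase genes under E2F control, 11 were positive, the median was 0.16, and 0 passed. Mcm5, a subunit of the replicative helicase, had the smallest p of that list, with 0.53 ± 0.31 at one probe and 0.08 ± 0.14 at the other. Among 12 tested cyclins of other classes, 9 were positive and 3 negative, with a median of 0.04 (-0.01 after centring, with 6 of each sign) and 0 passing. Their smallest p was that of Ccne2, a cyclin E that follows the D-type cyclins in G1, at 0.51 ± 0.28, with MF1 values of -0.54, 0.23 and 0.93 and C57 values of 1.36 and 0.27.

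**Figure D4:**
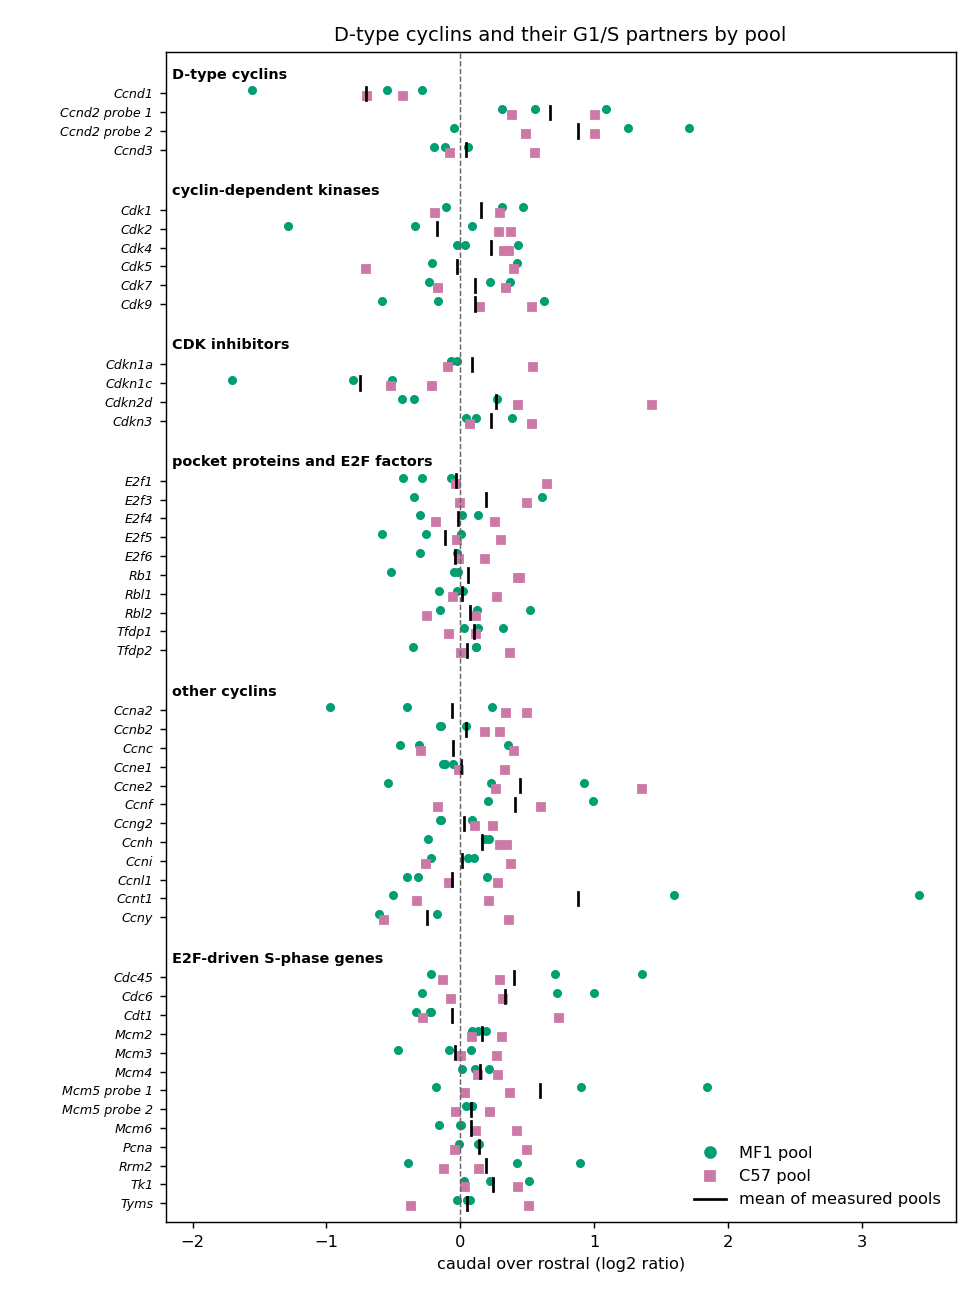
Caudal over rostral log2 ratio (x axis) of the D-type cyclins and of tested genes of the G1/S machinery (rows, grouped by role). Circles are MF1 pools, squares C57 pools and black bars the mean of measured pools. The means of the pocket protein and E2F genes sit near 0, while their single pools run from -0.59 (E2f5) to 0.65 (E2f1). Cdkn1c, like Ccnd1, has all 5 pools below 0.

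Genes known to raise or remove D-type cyclins gave no call either. Of 9 tested probes for the turnover of D-type cyclins, 7 were positive (6 after centring) and the median was 0.14. The smallest p was that of Gsk3b, a kinase known to mark cyclin D1 for export and degradation, at 0.21 ± 0.17 and 0.14 ± 0.17 at its 2 tested probes. Known inducers in the WNT, MYC and hedgehog pathways were positive at 9 probes and negative at 2 (8 and 3 after centring), with a median of 0.09, equal to that of all probes. Ctnnb1, beta-catenin itself, stood at 0.45 ± 0.27, with 1.65 in MF1 pool 2 and between 0.11 and 0.30 in the other 4 pools. The tested FGF targets lay to the rostral side, with all 5 tested probes of 7 listed negative and a median of -1.07. The probes of Etv4, a transcription factor induced by FGF signalling, and Spry2, a relative of Spry1, had too few pools in C57 to be tested. Etv4 had -0.10, 0.47 and 0.19 in the MF1 pools and 0.48 in C57 pool 2. Spry2 had -2.10 and -1.04 in MF1 pools 2 and 3 and -0.61 in C57 pool 2. Of the tested probes, 4 had an unadjusted p under 0.05 and 0 passed in limma. They are among the genes from which the direction of the ratios was read, so their side is not independent evidence.

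The tissue was checked against its markers, which on ratio arrays can show a side but no level. All 7 tested probes for neocortical genes were positive (6 after centring), with a median of 0.10. Over all tested probes the median was 0.09 and 69.4% were positive. Over 6 neocortical probes measured in all pools, the median was -0.24, -0.19 and 0.10 in MF1 pools 1 to 3. It was 0.26 and 0.41 in the C57 pools. Lhx2, a homeobox gene of cortical progenitors, stood at 0.32 ± 0.15. Lists for other cell states and tissues varied between pools too, and the part of any list in the cyclin ratios was not tested. Markers of intermediate progenitors and early neurons were positive at 9 of 9 tested probes (8 after centring), with a median of 0.34, and Neurod1, a proneural factor, had 0.74 ± 0.14 (limma adjusted p = 0.983). Of 8 probes for radial progenitor markers 3 were positive and 5 negative, the median was -0.16, and Slc1a3, a glutamate transporter, stood at -0.54 ± 0.16 at one probe and -0.15 ± 0.46 at the other tested one.

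Hem and choroid plexus genes, which mark the medial edge of the cortex, were positive at 6 of 6 tested probes (5 after centring), with Ttr at 1.68 ± 0.19. Their median over 4 probes measured in all pools was 0.55, 0.87 and 1.42 in MF1 pools 1 to 3 and 0.14 and 0.85 in the C57 pools. Ventral telencephalon markers had 4 positive and 4 negative probes (3 and 5 after centring). Their median over 5 probes was -0.79, -0.41 and -0.50 in MF1 and -0.30 and 0.37 in C57. Dlx2, a homeobox gene of ventral progenitors, stood at -0.76 ± 0.15, with MF1 values of -1.55, -1.86 and -1.32 and C57 values of -0.06 and 0.17. Its difference MF1 minus C57 was -1.63 ± 0.31 (limma adjusted p = 0.999). Blood markers were positive at 6 of 6 probes, with pool medians from -0.03 to 0.15 in MF1 and from 0.57 to 0.67 in C57, and Hbb-y, an embryonic globin, averaged 0.52 ± 0.15. Mesenchyme markers had 1 positive and 3 negative tested probes, the positive one being Lum, a matrix proteoglycan, at 0.77 ± 0.36. Endothelial markers had 4 positive and 1 negative, with Esam, an adhesion molecule of vessels, at 1.04 ± 0.33. Esam had 2.77 and 1.13 in MF1 pools 1 and 3 and -0.24 and 0.52 in the C57 pools, and averaged 2.17 with caudal and -0.05 with rostral RNA in Cy5.

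The genes whose 5 pool ratios were most like those of each cyclin were found by root mean square difference among 7527 probes. For Ccnd1 they were Acss1, an acetyl-CoA synthetase, at a difference of 0.26, Pitpnm2os1 at 0.28 and Nfe2l2, a transcription factor of the oxidative stress response, at 0.31. The median over all these probes was 0.93. For Ccnd2 probe 1 they were Slc20a2, a phosphate transporter, at 0.15, Doc2g at 0.16 and Adam5 at 0.17, against a median of 0.69. For Ccnd2 probe 2 they were Timp3, an inhibitor of metalloproteinases, at 0.24, Psap, a lysosomal precursor protein, at 0.27, and Id3, a BMP-induced inhibitor of differentiation, at 0.28, against a median of 0.996. The 2 Ccnd2 probes shared none of these 3 nearest genes. For Ccnd3 the nearest were Tomm7, of the mitochondrial import machinery, at 0.05, Maf1, a repressor of RNA polymerase III, also at 0.05, and Grhl2, an epithelial transcription factor, at 0.07, against a median of 0.38. Likeness over 5 pools is a description of these arrays.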

How the data were processed

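Per the labels' protocols, Trizol RNA was amplified as cDNA and labelled with Cy3 and Cy5. The authors deposited log2 ratios, a unit read from the values. They were used with the scanner, background correction and normalization not given in the sources used here. Array medians differed, so the ratios were taken as not centred. Values at the ceiling of 16.61 (436 of them) and null entries were treated as missing, and 232 control spots were left out of 21998. Signs were turned so that each array read caudal over rostral, and both arrays of a pool were averaged. Probes with at least 2 complete pools in each strain were tested (11855 of 21766, all 4 cyclin probes among them). limma 3.58.1 (R 4.3.3) was fitted to the pool values with a coefficient per strain, two-sided, adjusted by Benjamini-Hochberg over all tested probes at 0.05. The p-values measure the spread between pools.

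A symbol was given to 16632 probes, 139 had several and 4995 none. Of the symbols, 15952 matched RefSeq genes of GRCm38.p6 by gene identifier. No coordinates are given, as no genome build is named for the probes.

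Members and lists were chosen with earlier results of these data known. Named were all cyclin probes, the probe of smallest p in a list, Cdk4, Cdk6, Cdk2, Cdkn1b, Cdkn1c, Rb1 and Rbl1, and the 3 probes most like each cyclin. Second probes and other genes were named after their values were seen. The fit was tested on 11855 simulated probes. In the mean of both strains it recovered 0 of 200 changes of 1 and 162 of 200 changes of 2 (5 false calls). In MF1 minus C57 it recovered 0 of 200 changes of 2 and 123 of 200 of 3 (8 false calls). Noise was drawn separately for each pool value, without the dye differences seen on the arrays. Alternatives covered centring, scaling, dye order, filters, the ceiling, single arrays, the variance model, a replicate block and leaving out pools. Figures used matplotlib 3.10.9.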

Additional observations from a re-analysis of the deposited data

Results flagged for a closer look

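Rb1 drew attention because its pools lay on opposite sides in the strains, at -0.05, -0.51 and -0.01 in MF1 and 0.45 and 0.43 in C57. These values were not centred, and the median of all probes was -0.20 in MF1 pool 1 and 0.37 in C57 pool 2. Rb1 lay above that median in both pools, and further above it in MF1 pool 1 than in C57 pool 2. Set against the pool medians, the strains thus neither lay on opposite sides nor stayed apart. Strains that do not overlap were seen for 16.1% of the probes measured in all 5 pools. For Rb1 the difference MF1 minus C57 was -0.63 ± 0.30 (limma's SE, n = 5 pools) and did not pass (limma adjusted p = 0.999). No group had enough pools for a check of single outlying pools.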

How the results depend on the processing

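The regional ratios of the 4 cyclin probes moved by less than the spread between pools in all 14 alternatives run for each. Some alternatives could not move these means, because the cyclin probes had a ratio on all 10 arrays. These were the filters, the ceiling, pool values from either dye order and the single arrays, which all returned the main value. Taken as the mean of both strains, Ccnd1 stayed between -0.89 and -0.49, Ccnd2 probe 1 between 0.49 and 0.86 and Ccnd2 probe 2 between 0.68 and 1.12, while Ccnd3 ran from -0.12 to 0.28 and was negative in 2. With a pool left out, the means were -0.81 to -0.49 for Ccnd1, 0.52 to 0.83 and 0.68 to 1.12 for the Ccnd2 probes, and -0.08 to 0.24 for Ccnd3. For the mean of both strains, 1 probe, Ttr, passed after centring and scaling the arrays (limma adjusted p = 0.047) and 1, again Ttr, with single arrays, a dye term and the pool as a random block (adjusted p = 0.015, within-pool correlation 0.333). In the other alternatives 0 passed, with 242 to 1472 probes at an unadjusted p under 0.05, against 367 with all pools. That count was 1442 without MF1 pool 1, 599 without MF1 pool 3 and 242 without C57 pool 1.

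No strain difference of a cyclin passed in any of the 16 alternatives (smallest limma adjusted p 0.764), but signs turned for 3 of the 4 probes. Ccnd1 was 0.44 after centring and scaling and 0.148 with rostral RNA in Cy5 alone. Ccnd2 probe 1 was 0.044 after centring, and Ccnd2 probe 2 was -0.24 after centring and scaling. With a pool left out, the differences were -0.49 to 0.15 for Ccnd1, -0.35 to 0.27 for Ccnd2 probe 1, -0.15 to 0.73 for Ccnd2 probe 2 and -0.65 to -0.0092 for Ccnd3, and the turned signs came without MF1 pool 1 (0.146 for Ccnd1, 0.13 for Ccnd2 probe 1), MF1 pool 3 (0.0053 and -0.15 for the Ccnd2 probes), C57 pool 2 (0.266 for Ccnd2 probe 1) and C57 pool 1 (-0.04 for Ccnd2 probe 2). The cause was not tested.

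Pools 1 and 2 of the strains share only a number. With that number as a replicate block, the difference was -0.36 for Ccnd1, 0.0053 and -0.15 for the Ccnd2 probes and -0.27 for Ccnd3, and 0 probes passed (293 at an unadjusted p under 0.05, against 223 without the block). Deviations from the strain means correlated across probes at 0.149 for pools 1 and -0.02 for pools 2.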
